A study of Mus musculus with 15 samples.

Results

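The genes described are 41 mitotic genes of the mouse, chosen by name from known roles in cyclin and Cdk1 activity, kinetochores, the spindle, its checkpoint and cytokinesis, with the genes named as kinesins (Kif) left out. The choice was made with earlier results of these data known. Cenpe, which encodes a kinesin motor of the kinetochore, is among the 41. They are 41 of the 53801 genes in the count table, and each was found under its Ensembl identifier. Their mRNA was measured by RNA sequencing in 15 cultures of primary adult neural stem cells (aNSCs), cells of the adult brain that were grown in suspension with growth factors. The cultures came from C57BL6/J-129sv mice aged 2 months, and every culture carried the Rosa26-CreERT2 transgene, which expresses in all cells a recombinase that 4-hydroxytamoxifen (4-OHT) switches on. In 5 cultures with 1 floxed and 1 wild-type allele of Trrap no drug was given (Fl/+ untreated). Cultures of the same 5 mice received 4-OHT (Fl/+ 4-OHT), so that these cells could lose 1 of the 2 copies of Trrap. The labels give 5 days of drug, while the study's methods describe a shorter exposure and then a period in medium renewed without it. Cultures of 5 other mice with both alleles floxed received 4-OHT in the same way (Fl/Fl 4-OHT). Per the labels each group had 3 males and 2 females. Trrap encodes a large scaffold protein of histone acetyltransferase complexes.

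Mitosis is started by cyclins that bind and activate Cdk1, together with the Polo and Aurora kinases. Kinetochores then assemble on centromeres and capture spindle microtubules, and the spindle assembly checkpoint holds back the anaphase-promoting complex until every chromosome is attached. Most of the mRNAs concerned are made in G2 and mitosis, under repression by the DREAM complex in resting cells and activation by Mybl2 and Foxm1 in cycling cells, and several of them serve as markers of dividing cells. In bulk RNA, fewer dividing cells and less mRNA per dividing cell cannot be told apart. In the adult brain neural stem cells and their progeny are among the few cells that divide.

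The 15 libraries held 25720034 to 32187097 assigned counts. Each of the 41 genes passed the filter on low counts in all 3 comparisons, and the lowest count of any of them in any library was 74. Trrap, counted over the whole gene, had 179 to 214 CPM (reads of a gene divided by the TMM-scaled library size) in Fl/+ untreated, 138 to 204 CPM in Fl/+ 4-OHT and 82.8 to 142 CPM in Fl/Fl 4-OHT cultures. Its log2 fold change in Fl/Fl 4-OHT against Fl/+ 4-OHT cultures was -0.64 ± 0.16 (SE, edgeR adjusted p 0.0115). The Fl/Fl 4-OHT culture of mouse 29 had the highest Trrap value of its group (142 CPM), inside the range of the Fl/+ 4-OHT cultures. The library of Fl/Fl mouse 39 is labelled female but had 0.313 CPM of Xist and 213 CPM summed over 4 genes of the Y chromosome. Without both libraries, an alternative chosen after the data were seen, the log2 fold change of Trrap was -0.73 ± 0.15 (SE, edgeR adjusted p 0.0116). The counts of called mitotic genes are given below with and without them, while values of single genes are from all libraries unless stated. Neural stem cell markers summed to between 5822 and 10359.7 CPM per library, and of the microglial and endothelial markers Aif1, Cx3cr1, Tmem119, Cdh5 and Cldn5 had at most 3 counts in every library. Csf1r, P2ry12 and Pecam1 passed 3 counts in most libraries but reached at most 1.04 CPM, and Kdr did so in all 15 with up to 8.01 CPM.

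The promoters of some of the genes are shown because the DREAM complex, Mybl2 and Foxm1 act at a short motif near the start site, the CHR (letters TTTGAA, or TTCGAA as a variant). The CCAAT box, bound by the factor NF-Y, is often found beside it in promoters of mitotic genes. The study itself asked about Sp1, whose GC box is searched here as GGGCGG. E2F motifs (TTTCCCGC, TTTGGCGC or TTTCGCGC) and the E-box CACGTG were searched as well, all on both strands. RefSeq promoters of GRCm38.p6, 250 bases before to 50 bases after the start, were found for 33 of the 41 genes, and the first listed start was taken for the 5 genes with more than 1. Those without an entry were Zwilch, Ccna2, Aurkb, Incenp, Spc24, Ska1, Tpx2 and Foxm1. The CHR or its variant was found in 23 of 33 promoters (69.7%), against 19.2% of all 32851 promoters in the reference. CCAAT was found in 24 of 33 (72.7%, against 37.4%) and the GC box in 26 of 33 (78.8%, against 35.7%). A CHR and a CCAAT box together were found in 21 of 33 (63.6%, against 7.52%). The E2F letters occurred in 2 of 33 (6.06%, against 1.84%) and the E-box in 3 of 33 (9.09%, against 7.15%). The promoters that follow belong to the 3 genes with an entry that ran against their group after Trrap deletion (Mad1l1, Bub3 and Cenpm) and to the 5 genes with the largest falls among those whose values are given in every library and that have an entry. Each is written 5′ to 3′ on the strand of the gene, and capitals mark every motif searched, on either strand. The coordinates are Mad1l1 chr5:140321503-140321802 (minus strand), Bub3 chr7:131560120-131560419 (plus strand), Cenpm chr15:82244287-82244586 (minus strand), Mki67 chr7:135716330-135716629 (minus strand), Ube2c chr2:164769679-164769978 (plus strand), Cenpe chr3:135212313-135212612 (plus strand), Nusap1 chr2:119618048-119618347 (plus strand) and Racgap1 chr15:99651607-99651906 (minus strand).
Mad1l1: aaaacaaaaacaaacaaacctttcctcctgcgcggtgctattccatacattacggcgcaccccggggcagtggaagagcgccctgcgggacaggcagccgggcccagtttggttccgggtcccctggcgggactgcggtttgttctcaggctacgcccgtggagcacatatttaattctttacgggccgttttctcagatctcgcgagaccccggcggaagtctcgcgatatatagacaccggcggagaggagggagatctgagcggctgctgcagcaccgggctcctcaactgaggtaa
Bub3: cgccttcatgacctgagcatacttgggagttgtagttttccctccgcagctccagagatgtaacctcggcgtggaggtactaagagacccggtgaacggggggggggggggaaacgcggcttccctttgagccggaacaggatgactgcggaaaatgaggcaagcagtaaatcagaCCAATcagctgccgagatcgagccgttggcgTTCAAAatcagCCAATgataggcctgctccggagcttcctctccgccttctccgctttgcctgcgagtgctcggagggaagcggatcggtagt
Cenpm: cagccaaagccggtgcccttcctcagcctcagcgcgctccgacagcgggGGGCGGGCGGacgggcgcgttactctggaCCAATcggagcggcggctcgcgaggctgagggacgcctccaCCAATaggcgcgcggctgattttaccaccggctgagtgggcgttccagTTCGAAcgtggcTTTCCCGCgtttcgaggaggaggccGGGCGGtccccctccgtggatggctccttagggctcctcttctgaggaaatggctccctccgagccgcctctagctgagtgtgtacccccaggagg
Mki67: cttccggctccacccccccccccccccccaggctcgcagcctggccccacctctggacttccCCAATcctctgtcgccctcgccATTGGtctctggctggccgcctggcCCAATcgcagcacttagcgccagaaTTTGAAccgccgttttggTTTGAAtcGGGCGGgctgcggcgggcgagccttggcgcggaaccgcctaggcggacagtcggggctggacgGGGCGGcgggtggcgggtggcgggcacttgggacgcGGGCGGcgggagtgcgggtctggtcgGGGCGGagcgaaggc
Ube2c: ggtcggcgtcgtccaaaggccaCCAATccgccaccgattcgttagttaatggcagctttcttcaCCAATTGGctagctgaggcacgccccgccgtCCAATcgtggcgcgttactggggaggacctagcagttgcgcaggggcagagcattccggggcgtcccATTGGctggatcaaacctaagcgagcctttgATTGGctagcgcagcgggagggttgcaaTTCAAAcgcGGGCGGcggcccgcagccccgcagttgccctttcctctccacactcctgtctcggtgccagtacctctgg
Cenpe: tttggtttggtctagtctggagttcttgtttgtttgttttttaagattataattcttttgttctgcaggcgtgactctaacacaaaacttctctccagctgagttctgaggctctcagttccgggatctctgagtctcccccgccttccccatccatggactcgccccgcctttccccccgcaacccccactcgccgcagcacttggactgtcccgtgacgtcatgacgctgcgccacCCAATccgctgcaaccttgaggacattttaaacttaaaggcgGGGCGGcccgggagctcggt
Nusap1: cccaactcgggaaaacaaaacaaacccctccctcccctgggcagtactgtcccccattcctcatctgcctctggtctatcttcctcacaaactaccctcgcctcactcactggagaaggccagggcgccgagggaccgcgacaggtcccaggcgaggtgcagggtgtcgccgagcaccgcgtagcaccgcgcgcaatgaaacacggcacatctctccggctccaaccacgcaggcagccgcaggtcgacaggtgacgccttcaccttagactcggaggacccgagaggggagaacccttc
Racgap1: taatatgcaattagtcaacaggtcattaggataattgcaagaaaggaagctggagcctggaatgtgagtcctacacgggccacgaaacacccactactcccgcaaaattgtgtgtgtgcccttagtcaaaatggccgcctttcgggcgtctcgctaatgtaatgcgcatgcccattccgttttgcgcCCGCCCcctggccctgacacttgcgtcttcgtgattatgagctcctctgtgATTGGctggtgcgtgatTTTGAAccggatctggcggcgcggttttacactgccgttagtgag
In Mad1l1 and in Nusap1 none of the letters searched was found. Mki67 and Ube2c held several CCAAT boxes, and both had the CHR letters closer to the start. Overlapping letters occur in Cenpm, where 2 GC boxes share bases, and in Ube2c, where CCAAT on both strands shares bases.

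Trrap deletion was read from Fl/Fl 4-OHT against Fl/+ 4-OHT cultures, both of which were exposed to the drug. The groups came from different mice, and there was no Fl/Fl culture without drug. Loss of Trrap therefore cannot be told apart from differences between the mice or genotypes that were there before the drug. Genes said to fall or rise in this comparison are those called lower or higher than in Fl/+ 4-OHT cultures. Of the 41 mitotic genes 31 fell, by 1.51-fold to 2.55-fold, and 1 rose. Among all 15036 genes tested 31.7% were called, 15.0% lower and 16.8% higher (edgeR quasi-likelihood test, adjusted p under 0.05 over all genes). The median log2 fold change of the 41 genes was -0.88, beside 0.02 over all genes tested. Of the genes that fell, 12 were at least 2-fold lower, where 2.27% of all genes were. For 18 genes every Fl/Fl 4-OHT culture was below every Fl/+ 4-OHT culture (11.4% of all genes), and for Mad1l1 every one was above (11.2% of all genes). The other 9 genes were not called, with log2 fold changes of -0.71 to 0.16. Without the libraries of mice 29 and 39 the counts were 29 lower and 1 higher, where 9.87% of all genes tested were called lower and 10.1% higher, and the median was -0.95. The calls lost were those of Mad2l1 (-0.69, adjusted p 0.0523) and Anln (-0.64, adjusted p 0.0540). Standard errors ranged from 0.07 to 0.30 on the log2 scale. The genes are described below by role, with values of single libraries in the order of mice 19, 24, 26, 35 and 36 for Fl/+ and of mice 27, 28, 29, 37 and 39 for Fl/Fl cultures.

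**Figure D1:**
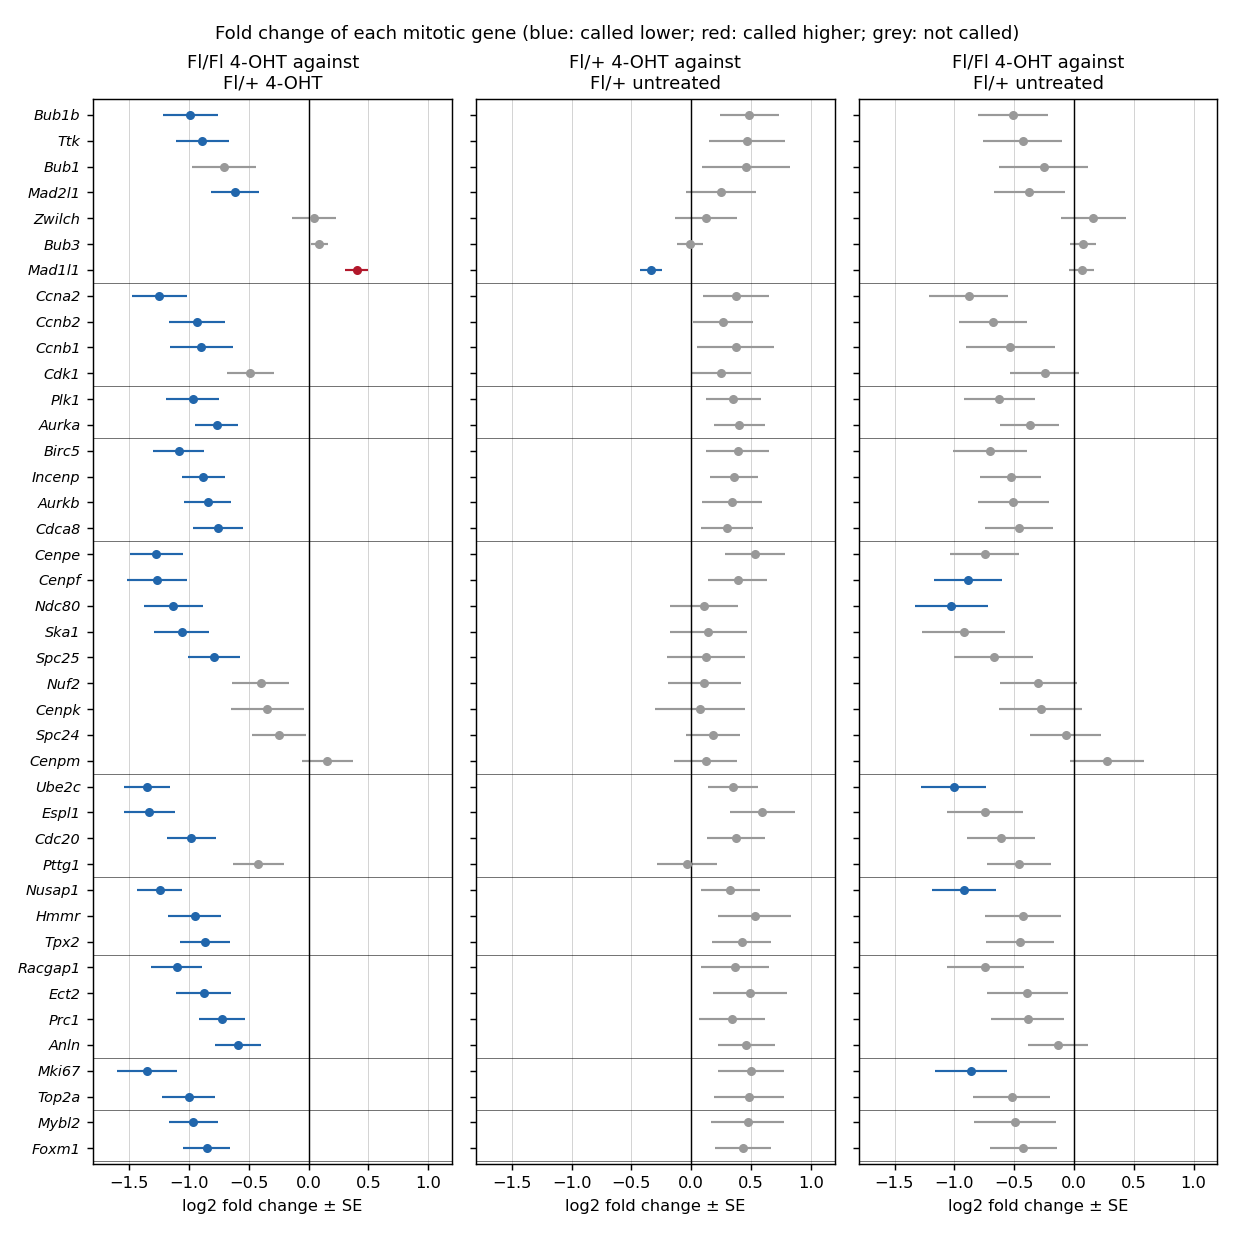
Log2 fold change (x axis) with its standard error for each of the 41 genes (y axis, grouped by role) in the 3 comparisons, each of 5 against 5 libraries; colours mark the edgeR calls. In the left panel 31 genes are called lower and Mad1l1 is called higher, in the middle panel Mad1l1 alone is called, and in the right panel 5 genes are called lower.

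The spindle assembly checkpoint was the group in which the genes differed most in direction: of 7 genes 3 fell (Bub1b, Ttk and Mad2l1), 1 rose (Mad1l1), and 3 were not called. Bub1b (ENSMUSG00000040084, chr2:118598211-118641591, plus strand) encodes BubR1, part of the complex that binds and blocks Cdc20. It had 103, 123, 75.97, 124 and 127 CPM in Fl/+ 4-OHT cultures and 69.8, 61.7, 40.997, 31.1 and 72.2 CPM in Fl/Fl 4-OHT cultures. Every Fl/Fl culture was below every Fl/+ culture treated alike, with a log2 fold change of -0.99 ± 0.23 (SE, adjusted p 0.00761). Untreated Fl/+ cultures had 79.2, 75.2, 44.1, 66.7 and 131 CPM, a range that overlapped both other groups. Ttk, the Mps1 kinase that starts checkpoint signalling, changed by -0.89 ± 0.22 (adjusted p 0.0104). Mad2l1, whose protein is turned into a Cdc20 inhibitor at free kinetochores, changed by -0.62 ± 0.20 (adjusted p 0.0369), and its call was lost in 10 of 18 alternative settings. Bub1, a kinase that recruits the other checkpoint proteins, was not called at -0.71 ± 0.27 (adjusted p 0.0650), although DESeq2 called it, and edgeR did so without the library of Fl/+ 4-OHT mouse 26 or that of Fl/Fl mouse 39.

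Mad1l1 (ENSMUSG00000029554, chr5:140008689-140321552, minus strand) encodes Mad1, the kinetochore partner of Mad2. It had 42.9, 36.6, 42.9, 46.9 and 42.4 CPM in Fl/+ 4-OHT and 59.1, 52.2, 48.0, 52.1 and 65.7 CPM in Fl/Fl 4-OHT cultures. It was the one mitotic gene that rose, by 0.40 ± 0.10 on the log2 scale (adjusted p 0.00847), with no overlap between the groups. In untreated Fl/+ cultures it had 57.6, 45.2, 55.8, 52.8 and 56.0 CPM, and Fl/Fl 4-OHT against untreated gave 0.06 ± 0.10 (adjusted p 0.673). The Fl/+ 4-OHT cultures were thus the group with the low values. Bub3 (ENSMUSG00000066979, chr7:131560222-131571895, plus strand), which carries Bub1 and BubR1 to kinetochores, had 130.4, 132, 117, 136 and 131 CPM in Fl/+ 4-OHT and 136, 138, 126, 126 and 155 CPM in Fl/Fl 4-OHT cultures. These groups overlapped and the log2 fold change was 0.09 ± 0.07 (adjusted p 0.362). Untreated cultures had 144, 114, 104, 137 and 153 CPM of Bub3. Zwilch (ENSMUSG00000032400, chr9:64137144-64173104, minus strand) belongs to the RZZ complex, which brings Mad1 and dynein to kinetochores. Its values of 29.3, 30.0, 21.7, 34.9 and 36.6 CPM in Fl/+ 4-OHT and 35.9, 30.99, 29.1, 19.9 and 39.3 CPM in Fl/Fl 4-OHT cultures overlapped (0.04 ± 0.18, adjusted p 0.880). Untreated cultures had 22.9, 25.9, 14.3, 31.9 and 45.1 CPM of Zwilch.

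**Figure D2:**
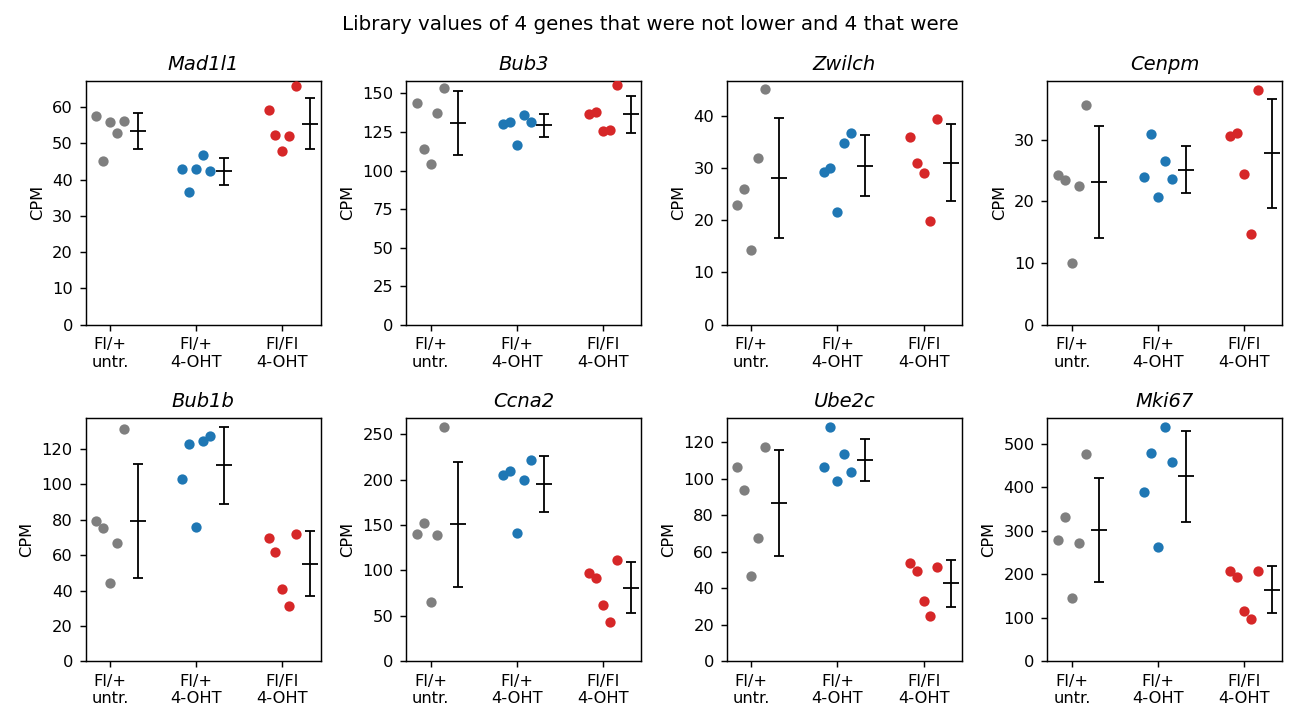
CPM (y axis, from 0) of 8 genes in each library of the 3 groups (x axis); bars give the mean ± SD of 5 libraries. Mad1l1, Bub3, Zwilch and Cenpm, in the top row, had higher means in Fl/Fl 4-OHT than in Fl/+ 4-OHT cultures, though Mad1l1 alone was called; Bub1b, Ccna2, Ube2c and Mki67, in the bottom row, were lower in every Fl/Fl 4-OHT culture than in every Fl/+ 4-OHT culture.

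Of the cyclins and Cdk1, 3 of 4 fell. Ccna2 (ENSMUSG00000027715, chr3:36564865-36572150, minus strand) encodes cyclin A2, which acts in S phase and at the entry into mitosis. It had 205, 209, 142, 199 and 221 CPM in Fl/+ 4-OHT and 97.7, 91.7, 62.1, 42.9 and 112 CPM in Fl/Fl 4-OHT cultures. The groups did not overlap and the change was -1.25 ± 0.23 (adjusted p 0.00250), 2.38-fold. In untreated cultures Ccna2 had 140.4, 152, 65.4, 139 and 257 CPM. The mitotic cyclins Ccnb1 (-0.90 ± 0.27, adjusted p 0.0247) and Ccnb2 (-0.93 ± 0.23, adjusted p 0.0111) fell as well. Both have an annotated pseudogene, so reads of near-identical stretches may be missing from their counts. Cdk1 itself was not called (-0.49 ± 0.20, adjusted p 0.0809), and it was called without Fl/+ 4-OHT mouse 26 or without Fl/Fl mouse 39.

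Both mitotic kinases fell. Plk1 (ENSMUSG00000030867, chr7:122159439-122169873, plus strand), the Polo kinase of centrosomes and kinetochores, had 76.8, 95.4, 69.5, 97.8 and 91.9 CPM in Fl/+ 4-OHT and 50.2, 44.6, 29.7, 27.0 and 66.4 CPM in Fl/Fl 4-OHT cultures. The highest Fl/Fl culture, of mouse 39, lay just under the lowest Fl/+ culture, of mouse 26, and the change was -0.97 ± 0.22 (adjusted p 0.00714). Untreated cultures had 72.2, 71.2, 34.9, 57.0 and 103 CPM. Aurka, the Aurora kinase of spindle poles, changed by -0.77 ± 0.18 (adjusted p 0.00751).

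All 4 genes of the chromosomal passenger complex, which corrects wrong attachments of chromosomes, fell with no overlap between the groups. Birc5 (ENSMUSG00000017716, chr11:117849251-117855743, plus strand) encodes survivin, its targeting subunit. Birc5 had 53.0, 50.5, 35.6, 51.5 and 53.0 CPM in Fl/+ 4-OHT and 24.5, 26.3, 17.2, 13.3 and 32.2 CPM in Fl/Fl 4-OHT cultures. This is a change of -1.09 ± 0.21 (adjusted p 0.00358), and untreated cultures had 40.0, 35.5, 17.0, 33.0 and 60.7 CPM. Incenp, the scaffold (-0.88 ± 0.18, adjusted p 0.00422), Aurkb, the kinase (-0.84 ± 0.20, adjusted p 0.00843), and Cdca8, which encodes borealin (-0.76 ± 0.21, adjusted p 0.0179), fell as well.

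Of the 9 kinetochore and centromere genes 5 fell and 4 were not called. Cenpe (ENSMUSG00000045328, chr3:135212537-135273611, plus strand) encodes the kinetochore motor CENP-E. It had 74.5, 85.4, 53.0, 88.3 and 89.7 CPM in Fl/+ 4-OHT and 39.6, 34.6, 21.7, 21.01 and 43.2 CPM in Fl/Fl 4-OHT cultures. The change was -1.27 ± 0.22 (adjusted p 0.00173), with no overlap, and untreated cultures had 47.7, 59.0, 29.5, 45.9 and 88.8 CPM. Cenpf, a large protein of the outer kinetochore, changed by -1.27 ± 0.25 (adjusted p 0.00352), and Ska1, which helps kinetochores hold microtubule ends, by -1.06 ± 0.23 (adjusted p 0.00584). The 4 subunits of the Ndc80 complex, which binds microtubules as 1 unit, did not have the same values. Ndc80 (-1.13 ± 0.25, adjusted p 0.00576) and Spc25 (-0.79 ± 0.22, adjusted p 0.0183) fell, while Nuf2 (-0.40 ± 0.24, adjusted p 0.224) and Spc24 (-0.25 ± 0.22, adjusted p 0.429) were not called, and the differences between the subunits were not tested. Cenpk and Cenpm belong to the constitutive centromere network. Cenpk, the least abundant gene per length, was at -0.34 ± 0.30 (adjusted p 0.415). Cenpm (ENSMUSG00000068101, chr15:82233779-82244748, minus strand) had 24.0, 30.9, 20.7, 26.6 and 23.6 CPM in Fl/+ 4-OHT and 30.6, 31.2, 24.4, 14.7 and 38.1 CPM in Fl/Fl 4-OHT cultures. The Fl/Fl values lay on both sides of the Fl/+ values (0.16 ± 0.21, adjusted p 0.605), and untreated cultures had 24.3, 23.5, 9.94, 22.4 and 35.7 CPM.

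Among the 4 genes of anaphase control 3 fell. Ube2c (ENSMUSG00000001403, chr2:164769898-164778822, plus strand) encodes the ubiquitin-conjugating enzyme of the anaphase-promoting complex. It had 106, 128, 98.6, 114 and 104 CPM in Fl/+ 4-OHT and 53.7, 49.7, 33.2, 25.1 and 52.0 CPM in Fl/Fl 4-OHT cultures. The groups were far apart (-1.35 ± 0.19, adjusted p 0.000606, the lowest of the 41 genes), and untreated cultures had 107, 94.0, 46.7, 67.7 and 118 CPM. Espl1, which encodes separase, the protease that cuts cohesin, changed by -1.33 ± 0.21 (adjusted p 0.00114), and Cdc20, the activator of the anaphase-promoting complex, by -0.98 ± 0.20 (adjusted p 0.00456). Pttg1, which encodes securin, the inhibitor of separase, was not called (-0.42 ± 0.21, adjusted p 0.158).

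All 3 genes of spindle assembly fell. Nusap1 (ENSMUSG00000027306, chr2:119618298-119651244, plus strand), a microtubule-bundling protein, had 120.0, 127, 83.2, 126 and 139.7 CPM in Fl/+ 4-OHT and 55.6, 56.4, 35.5, 36.3 and 65.3 CPM in Fl/Fl 4-OHT cultures. The change was -1.24 ± 0.19 (adjusted p 0.000833), with no overlap, and untreated cultures had 95.8, 100.2, 47.6, 84.2 and 148 CPM. Hmmr (-0.95 ± 0.22, adjusted p 0.00822) and Tpx2, the activator of Aurora A on the spindle (-0.87 ± 0.21, adjusted p 0.00879), fell as well.

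All 4 genes of the midzone and cytokinesis fell. Racgap1 (ENSMUSG00000023015, chr15:99620496-99651656, minus strand) encodes a subunit of centralspindlin, which marks the site of division. It had 183, 178, 127, 193 and 198 CPM in Fl/+ 4-OHT and 91.9, 93.1, 58.5, 49.8 and 111 CPM in Fl/Fl 4-OHT cultures. No culture of 1 group reached the other (-1.10 ± 0.21, adjusted p 0.00293), and untreated cultures had 131, 126, 59.1, 129.8 and 237 CPM. Ect2, the exchange factor that switches on RhoA, changed by -0.88 ± 0.23 (adjusted p 0.0137), Prc1, which bundles midzone microtubules, by -0.72 ± 0.20 (adjusted p 0.0164), and Anln, which encodes anillin of the contractile ring, by -0.59 ± 0.19 (adjusted p 0.0371). The call of Anln was lost in 10 of 18 alternative settings, and that of Prc1 in 1.

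Of chromosome structure genes, Mki67 (ENSMUSG00000031004, chr7:135689784-135716361, minus strand) encodes Ki-67, the coat of mitotic chromosomes that is used as a marker of dividing cells. It had 389, 478, 262, 537 and 457 CPM in Fl/+ 4-OHT and 208, 195, 115, 97.2 and 208 CPM in Fl/Fl 4-OHT cultures. This was the largest change among the 41 genes (-1.35 ± 0.25, adjusted p 0.00243), and untreated cultures had 279, 331, 146, 273 and 476 CPM. Top2a, the topoisomerase that untangles chromosomes, changed by -1.002 ± 0.22 (adjusted p 0.00611), and part of its exons overlaps another annotated gene on the same strand. Both transcription factors fell. Mybl2 (ENSMUSG00000017861, chr2:163054687-163084688, plus strand) had 19.2, 17.4, 13.8, 17.1 and 21.1 CPM in Fl/+ 4-OHT and 9.11, 9.66, 8.20, 5.18 and 12.8 CPM in Fl/Fl 4-OHT cultures. All Fl/Fl cultures were again below all Fl/+ cultures that received the drug (-0.96 ± 0.21, adjusted p 0.00538), and untreated cultures had 11.5, 9.28, 5.95, 13.2 and 24.1 CPM. Foxm1 changed by -0.85 ± 0.20 (adjusted p 0.00734), and its exons overlap those of 2 other annotated genes on the same strand, so that its counts are less certain.

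An exact two-sided permutation test of single genes on log2(CPM + 0.5) gave p = 0.00794 for 19 of the 41 genes, which is the smallest p that 5 against 5 libraries allow, and p-values under 0.05 for 32. These p-values are not adjusted for the number of genes, and the test was not run over all genes. The smallest p belongs to groups without overlap, found for 11.4% of all genes lower and 11.2% higher. In edgeR the unadjusted p-value was under 0.05 for 34 of the 41 genes and for 6462 of all 15036 genes tested. With all 18 alternative settings 26 genes were called lower each time, Mad1l1 was called higher each time, and 7 genes were not called in any. Per length, in CPM per 1000 exonic bases, Cdc20 had the highest level of the 41 genes in each group (43.3 in Fl/+ untreated, 56.1 in Fl/+ 4-OHT and 28.2 in Fl/Fl 4-OHT), followed by Top2a (38.4, 53.7 and 26.5), and Cenpk the lowest (1.28, 1.34 and 1.04).

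Fl/+ 4-OHT cultures were set against Fl/+ untreated cultures of the same 5 mice, and share their libraries with the comparison above. The drug itself and any loss of 1 Trrap copy cannot be told apart here. The log2 fold change of Trrap was -0.21 ± 0.11 (SE, edgeR adjusted p 0.234), and -0.22 ± 0.08 (adjusted p 0.0838) with the mouse as a replicate block, so that Trrap was not called lower in either fit. Without pairing, 0 of the 41 genes was called higher and Mad1l1 was called lower (edgeR), while 13.8% of all 14821 genes tested were called, 7.34% higher and 6.45% lower. Before adjustment the p-value was under 0.05 for 1 of the 41 genes, which was lower, and for 0 higher. It was so for 4353 of all 14821 genes tested. DESeq2 called 1 of the 41 genes lower and 0 higher, beside 1460 lower and 1548 higher of 28745 genes. For 0 genes did the groups stay apart, where 5.47% of all genes were lower and 6.52% higher with no overlap. The median log2 fold change was 0.36, beside -0.01 over all genes tested, and 38 of 41 genes had a positive value. With the mouse as a replicate block 16 genes were called higher and 1 lower (13.8% and 11.9% of all genes), with a median of 0.43. The 16 were the checkpoint genes Bub1, Bub1b and Ttk, the kinase gene Aurka, the kinetochore genes Cenpe and Cenpf, Espl1, the spindle genes Tpx2, Nusap1 and Hmmr, Anln and Ect2 of cytokinesis, Mki67 and Top2a, and both transcription factors. In that fit Espl1 changed by 0.69 ± 0.16 (adjusted p 0.0178), Hmmr by 0.63 ± 0.13 (adjusted p 0.0112) and Mki67 by 0.56 ± 0.14 (adjusted p 0.0224).

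Mad1l1 fell in 5 of 5 mice after 4-OHT, by 0.34 on the log2 scale (SE 0.09, adjusted p 0.0351, and 0.0114 with the block). The exact two-sided sign-flip p over the 5 mice was 0.0625, the smallest that 5 pairs allow. The call of Mad1l1 without pairing was lost in 10 of 18 alternative settings, with adjusted p-values up to 0.0934; among them are 8 of the 10 settings that leave out 1 library (Fl/+ untreated mice 19, 26, 35 and 36, Fl/+ 4-OHT mice 19, 24, 26 and 36). Of the other genes, Cenpe and Hmmr were higher after 4-OHT in 5 of 5 mice, 30 genes in 4 of 5, 5 genes in 3 of 5, and Bub3, Cenpk and Pttg1 in 2 of 5. The mouse that differed was mostly mouse 36, in which 39 of 41 genes were lower after the drug (median of -0.18 over the 41 genes). In mouse 19 the median change was 0.35 (34 genes higher), in mouse 24 it was 0.45 (38 higher), in mouse 35 it was 0.60 (37 higher) and in mouse 26 it was 0.91 (40 higher). The median of the unpaired comparison was 0.56 without the untreated library of mouse 36, with 11 genes called higher, where 9.01% of all genes were. This median was 0.18 without the untreated library of mouse 26.

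**Figure D3:**
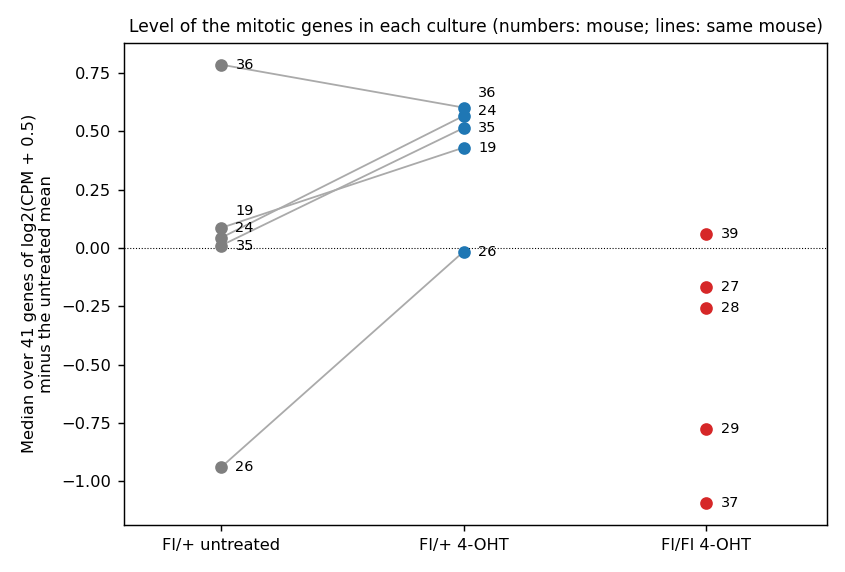
Median over the 41 genes of log2(CPM + 0.5) minus the mean of the 5 Fl/+ untreated libraries (y axis) for each culture (points, numbered by mouse) in the 3 groups (x axis); lines join cultures of the same mouse. Untreated cultures spread from -0.94 (mouse 26) to 0.79 (mouse 36), Fl/+ 4-OHT cultures from -0.02 to 0.60, and Fl/Fl 4-OHT cultures from -1.09 to 0.06.

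Fl/Fl 4-OHT cultures were last set against Fl/+ untreated cultures, which differ in mice, genotype and drug at once and share libraries with both comparisons above. Of the 41 genes 5 fell (Ndc80, Ube2c, Nusap1, Cenpf and Mki67) and 0 rose, where 30.7% of all 15032 genes tested were called, 15.1% lower and 15.7% higher (edgeR). Before adjustment the p-value was under 0.05 for 12 genes, all of them lower, and for 6355 of all 15032 genes tested. DESeq2 called 8 lower and 0 higher, beside 2716 lower and 2873 higher of 28799 genes. The median log2 fold change was -0.50, beside 0.00 over all genes tested. Ndc80 changed by -1.03 ± 0.31 (adjusted p 0.0254), Ube2c by -1.005 ± 0.27 (adjusted p 0.0161) and Nusap1 by -0.92 ± 0.27 (adjusted p 0.0231). For 0 of the 41 genes did the groups stay apart without overlap, while 11.6% of all genes were lower and 11.5% higher with no overlap. The number of genes called lower depended on single libraries. It was 16 without untreated mouse 26, 3 without untreated mouse 19 or 24, 2 without untreated mouse 36, and 1 without Fl/Fl mouse 29 or 37, and with Fl/Fl mice 29 and 39 both left out it was 0. Among all genes 11.8% to 15.1% were called lower with 1 library left out, and 8.63% lower and 9.73% higher without mice 29 and 39. Without untreated mouse 36 the median was -0.21. Ube2c was called in each setting that left out 1 library, and was lost with mice 29 and 39 both left out (adjusted p 0.0673).

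The 41 genes moved together between cultures of 1 group, as did genes of DNA replication. The median coefficient of variation over the genes was 40.7% in Fl/+ untreated, 17.9% in Fl/+ 4-OHT and 31.1% in Fl/Fl 4-OHT cultures, beside 19.9%, 15.5% and 14.5% over all 15309 genes tested. For 19 genes of DNA replication it was 45.4%, 19.2% and 29.7%. After the mean of each group was taken away, 1 component held 91.3% of the variance of the 41 genes over the 15 libraries, beside 35.1% for all genes tested and 93.1% for the same 19 replication genes. Without Fl/Fl mice 29 and 39 it held 91.0% for the 41 genes. Pearson correlations between pairs of the 41 genes across these 15 deviations had a median of 0.93, and 819 of 820 pairs were above 0; the points share libraries, scaling and, in the Fl/+ groups, mice. Mad1l1 had the lowest median correlation with the other genes (0.28), followed by Pttg1 (0.60). Single cultures stood at the ends of the range for many genes at once. The Fl/Fl 4-OHT culture of mouse 37 was the lowest of all 15 for 25 genes and the untreated culture of mouse 26 for 14, while the untreated culture of mouse 36 was the highest for 29. Summed over the 41 genes, cultures had 1564 to 4922 CPM untreated, 2841 to 4396 CPM in Fl/+ 4-OHT and 1383 to 2854 CPM in Fl/Fl 4-OHT, so that the highest Fl/Fl culture (mouse 39) slightly exceeded the lowest Fl/+ 4-OHT culture (mouse 26).

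**Figure D4:**
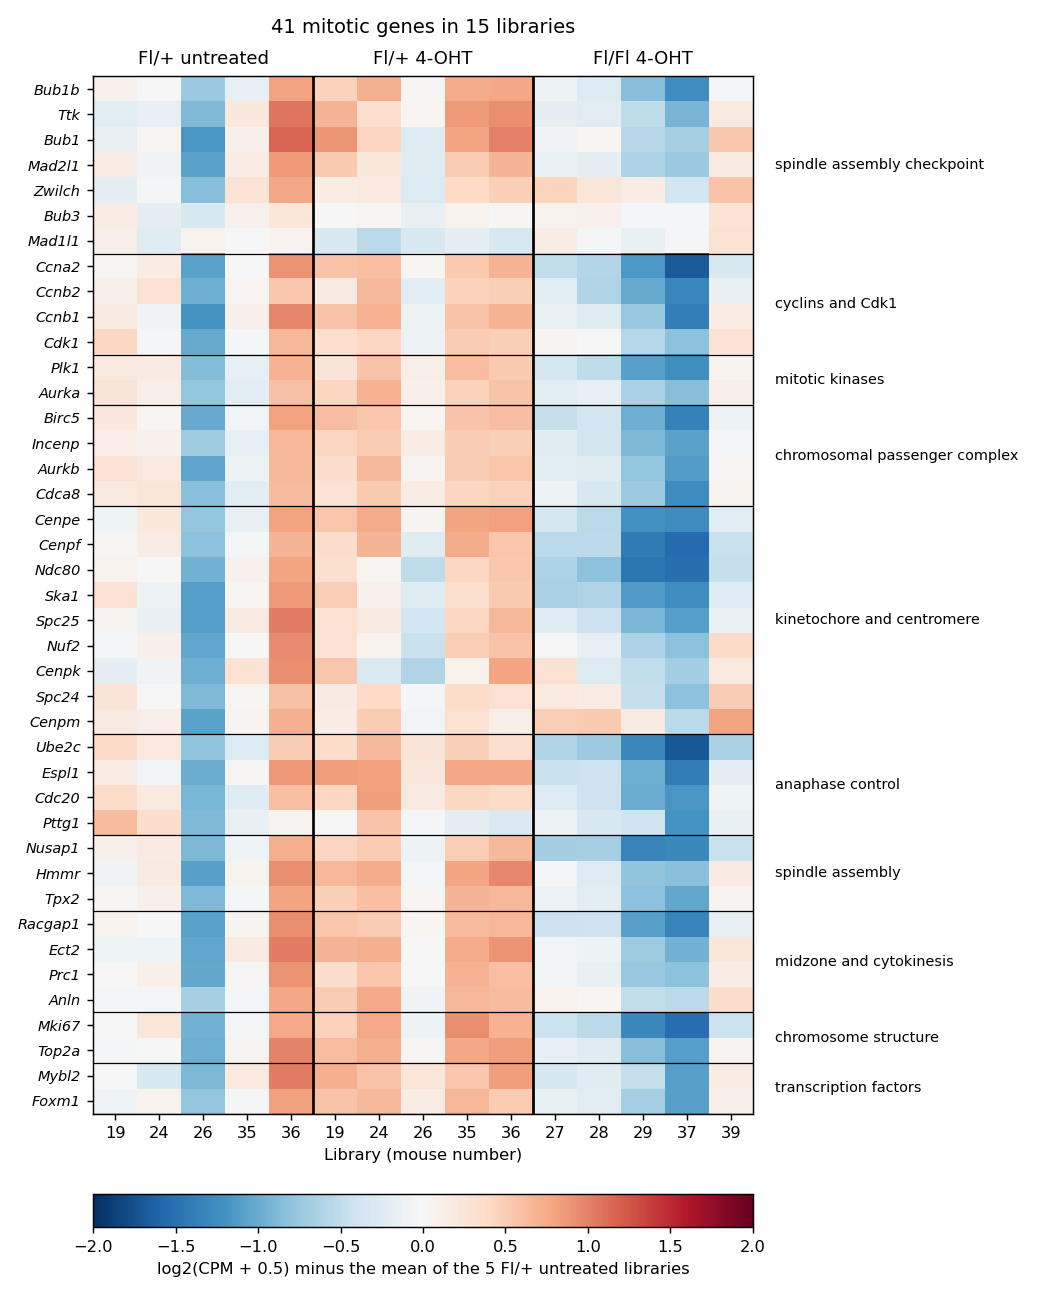
Difference of log2(CPM + 0.5) from the mean of the 5 Fl/+ untreated libraries (colour, blue lower and red higher) for 41 genes (rows, by role) in 15 libraries (columns, by mouse). The columns of untreated mouse 26 and Fl/Fl mouse 37 are blue in nearly all rows and that of untreated mouse 36 is red, while Mad1l1 and Bub3 vary little.

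Markers of other cells were measured beside these results. Astrocyte markers summed to 2679 to 3625 CPM in untreated, 3460 to 4655 CPM in Fl/+ 4-OHT and 2824 to 6337 CPM in Fl/Fl 4-OHT cultures, and oligodendrocyte markers to 3389.8 to 4413 CPM, 3260.7 to 4451 CPM and 3517 to 5282 CPM. The Fl/Fl culture of mouse 37, lowest in mitotic genes, had the highest sums of both lists. Neuron markers summed to 866 to 1139 CPM, 828 to 1013 CPM and 565 to 816 CPM in the same order of groups. In the Trrap deletion comparison, 3 of 10 neural stem cell markers, 2 of 9 neuron markers, 0 of 6 astrocyte markers and 0 of 9 oligodendrocyte markers were called lower, and 1 neuron marker was called higher. In the 4-OHT comparison 5 of 9 oligodendrocyte markers were called higher and 0 lower (median log2 fold change 1.49), 2 of 10 neural stem cell markers lower and 1 higher (median -0.23), and 1 of 8 neuron markers lower and 0 higher (median -0.27). In Fl/Fl 4-OHT against untreated cultures 6 of 9 oligodendrocyte markers were called higher and 1 lower (median 1.72), 6 of 9 neuron markers lower and 1 higher (median -1.12), and 4 of 10 neural stem cell markers lower and 0 higher (median -0.27). Without Fl/Fl mice 29 and 39 these counts were 5 higher and 0 lower, 3 lower and 1 higher, and 3 lower and 0 higher. Of all genes tested, 15.0% were called lower and 16.8% higher for Trrap deletion, and 6.45% and 7.34% for 4-OHT. For Fl/Fl 4-OHT against untreated the shares were 15.1% and 15.7%, and 8.63% and 9.73% without mice 29 and 39. The sums over the lists rest largely on a few abundant genes. Olig1, a transcription factor of the oligodendrocyte lineage, had a mean of 2444 CPM in untreated, 1893 CPM in Fl/+ 4-OHT and 1889 CPM in Fl/Fl 4-OHT cultures, while Mbp, a protein of myelin, had 16.3, 118 and 294 CPM. Among astrocyte markers Aldh1l1 had 1499, 1787 and 1540 CPM, and Gfap, an intermediate filament of astrocytes and neural stem cells, had 57.7, 549 and 758 CPM. Others were lower with the drug, S100b at 61.9, 16.4 and 21.8 CPM and Gja1 at 515, 345 and 314 CPM. Of the 6 astrocyte markers 2 were called lower and 1 higher both in the 4-OHT comparison and in Fl/Fl 4-OHT against untreated cultures, and without Fl/Fl mice 29 and 39 the latter counts were 0 lower and 1 higher. Mitochondrial genes took 1.72% to 3.56% of counts in untreated, 0.849% to 1.74% in Fl/+ 4-OHT and 1.36% to 2.19% in Fl/Fl 4-OHT cultures, so that untreated cultures reached the highest shares while the ranges overlapped. Whether the makeup of the cultures or the mitochondrial share has a part in the mitotic values was not tested.

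The rest of the mitotic machinery was followed in 115 further genes in 5 lists, of which 49 fell and 5 rose after Trrap deletion (median log2 fold change -0.35), where 15.0% of all genes tested were called lower and 16.8% higher. Without Fl/Fl mice 29 and 39 the counts were 42 lower and 4 higher (median -0.39), beside 9.87% and 10.1% of all genes. Of 33 other kinetochore and checkpoint genes 14 fell and 0 rose (median -0.40). Sgo1, the protector of centromeric cohesion, changed by -1.18 ± 0.24 (adjusted p 0.00452). Of 26 genes of the spindle, centrosome and cytokinesis 13 fell and 0 rose (median -0.41), with Cdca3 at -1.30 ± 0.21 (adjusted p 0.00129) and Aspm, a spindle pole protein, at -1.25 ± 0.23 (adjusted p 0.00220). Of 18 condensin and cohesin genes 9 fell and 0 rose (median -0.38), among them the condensin subunits Ncapg (-0.96 ± 0.26, adjusted p 0.0160) and Ncapd2 (-0.85 ± 0.16, adjusted p 0.00316). Of 21 genes of the entry into mitosis 8 fell and 2 rose (median -0.36), with the cyclin F gene Ccnf at -1.31 ± 0.19 (adjusted p 0.000675) and Melk at -1.003 ± 0.24 (adjusted p 0.00945).

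Of 17 genes of the anaphase-promoting complex and its regulators 5 fell and 3 rose (median -0.08). Fbxo5, which encodes the inhibitor Emi1 and not a subunit, changed by -1.69 ± 0.24 (adjusted p 0.000601), while the subunit Anapc13 rose by 0.63 ± 0.10 (adjusted p 0.000823). For DNA replication and the G1/S transition, which dividing cells pass before mitosis, 2 of 19 genes fell and 0 rose. The median of the 19 was -0.34, beside -0.35 for the 115 further mitotic genes and 0.02 for all genes tested, and 18 of the 19 had a negative log2 fold change. Without Fl/Fl mice 29 and 39, 3 were called lower and 0 higher (median -0.40). Those called in all libraries were Rrm2, a subunit of ribonucleotide reductase (-1.42 ± 0.22, adjusted p 0.000860), and Cdc45, part of the replicative helicase (-0.60 ± 0.19, adjusted p 0.0347). The difference between the replication list and the mitotic lists was not tested. In the 4-OHT comparison without pairing, 3 of the 115 genes were called lower and 2 higher, where 6.45% of all genes were called lower and 7.34% higher. With the mouse as a replicate block the counts were 6 lower and 25 higher, beside 11.9% and 13.8% of all genes, and 11 of the 25 were genes of the spindle, centrosome and cytokinesis. In Fl/Fl 4-OHT against untreated cultures 22 were called lower and 1 higher, beside 15.1% and 15.7% of all genes, and without Fl/Fl mice 29 and 39 there were 12 lower and 1 higher, beside 8.63% and 9.73%. These list counts under the block and without both libraries were chosen after the data were seen.

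**Figure D5:**
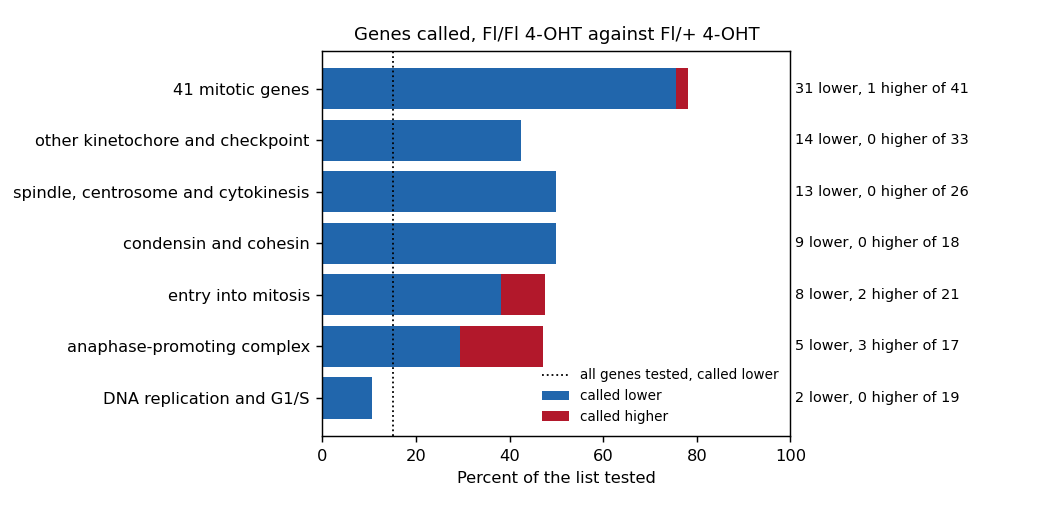
Percent of each list (x axis) called lower or higher in Fl/Fl 4-OHT against Fl/+ 4-OHT cultures for the 41 genes, 5 lists of further mitotic genes and 19 replication genes (y axis), with the counts at the right; the dotted line marks the 15.0% of all genes tested that were called lower. The bar of the 41 genes is the longest and that of the replication genes ends left of the line.

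Promoter letters were set beside the calls as a description. Of the 33 genes with a promoter entry, 25 fell and 8 did not. The CHR or its variant was found in 19 of the 25 and in 4 of the 8, CCAAT in 19 and 5, and the GC box in 22 and 4. Nusap1, whose promoter shown above holds none of these letters, fell with the others, and Bub3, whose promoter holds CHR and CCAAT letters, was not called.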

How the data were processed

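mRNA of 15 cultures was sequenced as stranded single-end libraries, all pooled over the same lanes. The authors used bcl2fastq 1.8.4, STAR 2.5.4b and featureCounts 1.5.0 with GRCm38 (Ensembl annotation), and counted uniquely mapped reads per gene by strand, so reads shared with near-identical copies are lost. The deposited values are raw counts, and all columns were used. Each comparison was fitted on its own 10 libraries over all genes with edgeR 4.0.16 in R 4.3.3 (filterByExpr with a minimum count of 10, TMM, quasi-likelihood F test, no covariates, Benjamini-Hochberg adjusted p under 0.05). The edgeR fit was tested on simulated counts in which 200 genes, drawn from all genes tested, were changed 2-fold. It called 63% of them for Trrap deletion, 59% for 4-OHT and 58.5% for Fl/Fl 4-OHT against untreated, so a gene not called may have changed. The other steps were not tested on simulated data. CPM uses TMM-scaled library sizes over all 15 libraries. DESeq2 1.42.0 and other settings served as alternatives.

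The members and lists were chosen with earlier results of these data known. All 41 genes were named. Values in every library were given for the gene with the largest change in each role group. They were also given for genes opposite in sign to most of their group, called or not. For other lists the 2 genes with the largest called change were named, except 1 that is not reported here.

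Fl/+ cultures were paired by mouse number, since treated and untreated cultures came from the same mouse. Deviations from group means, over 15435 genes, correlated at 0.16 to 0.63 between cultures of 1 mouse and at -0.55 to 0.34 between different mice. No 2 libraries of a group agreed within sampling noise. The labels and the methods describe the 4-OHT dose and exposure differently, so no dose is given. Locations come from GENCODE M21 on GRCm38.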

Additional observations from a re-analysis of the deposited data

Results flagged for a closer look

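In 7 of 123 sets of 5 libraries (41 genes in 3 groups) 1 library stood apart from the other 4 by Dixon's criterion, which chance alone meets in about 1 of 20 sets. In 6 of the 7 it was the Fl/+ 4-OHT culture of mouse 26 with the lowest value. Ccna2 had 142 CPM there (199 to 221 CPM in the other 4), Ccnb1 17.7 CPM (28.4 to 31.3 CPM), Incenp 95.5 CPM (115 to 122 CPM), Birc5 35.6 CPM (50.5 to 53.0 CPM), Espl1 39.8 CPM (58.7 to 61.5 CPM) and Racgap1 127 CPM (178 to 198 CPM). The seventh was Pttg1, with 76.7 CPM in the Fl/+ 4-OHT culture of mouse 24 against 42.0 to 51.7 CPM in the others. Without the Fl/+ 4-OHT library of mouse 26, 33 mitotic genes were called lower after Trrap deletion, where 15.2% of all genes tested were. The cause was not tested.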

How the results depend on the processing

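Across 18 alternatives each, the Trrap deletion counts stayed at 26 to 33 genes lower and 1 higher, and left-out libraries gave 28 to 33 lower and medians of -1.04 to -0.76. With 1 library left out, 12.6% to 15.2% of all genes were called lower and 12.2% to 15.7% higher. For 4-OHT, the mouse as a replicate block gave 16 genes called higher in place of 0, with a median of 0.43, and did not change their count called lower. For the 115 further mitotic genes the block gave 6 lower and 25 higher in place of 3 and 2, a setting chosen after the data were seen. Of the 41 genes, the count called lower was 0 with library size alone and with no filter on low counts, and 0 to 1 with a library left out. The count called higher with a library left out was 0 to 11 and the median 0.18 to 0.56. In those settings 3.27% to 7.73% of all genes were called lower and 4.97% to 9.01% higher. For Fl/Fl 4-OHT against untreated, the number of the 41 called lower was 8 with DESeq2, 9 with the dispersion over all 15 libraries, 3 with library size alone, and 1 to 16 with a library left out (medians -0.66 to -0.21). Of all genes 11.8% to 15.1% were called lower with a library left out, and 8.63% without Fl/Fl mice 29 and 39. With both of these mice left out, an alternative chosen after the data were seen, 0 of the 41 genes were called lower. For the 115 further genes the count was 12 in place of 22. The cause was not tested. No gene that was called changed direction in any alternative. Depth did not limit detection of the 41 genes. The p-values measure the spread between the cultures of each group.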

Other observations

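Both cultures of mouse 36, labelled male, had Xist and Y-linked RNA together. Xist stood at 5.89 CPM in the untreated and 74.7 CPM in the 4-OHT culture, beside 217 and 205 CPM summed over 4 Y-linked genes. The other libraries with 106 CPM or more of these genes had at most 0.541 CPM of Xist. The untreated culture of this mouse was the one with the highest mitotic values, and whether the 2 facts are linked was not tested.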
